A study of Mus musculus with 2 samples.

Results

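The genes described here are 10 genes of lymphocyte killing and its regulation: Gzma, Gzmb, Gzmk, Prf1, Nkg7, Ifng, Fasl, Klrd1, Klrk1 and Eomes. They were taken as a named list, all 10 were found in both gene tables by Ensembl identifier, and they stand among 29413 genes shared by the tables. Their RNA was measured in single immune cells sorted from metastatic lungs of female Balb/c mice, 7 days after 4T1 cells of the labelling kind were given by vein. The niche group and the distal group were 1 library each. The 4T1 line comes from a mammary tumour of the mouse and spreads to the lung. Niche and distal are the submitters' names, and both groups are immune cells of tumour-bearing lungs. Age, the number of animals, any pooling and the gates of the sort are not stated. With 1 library a group there is no replicate and no test, and every interval given is a 95% interval that covers counting error only.

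Cytotoxic T cells and natural killer (NK) cells kill by releasing granules in which perforin opens a path into the target for granzymes, proteases that trigger its death. They also kill through Fas ligand, which engages the receptor Fas, and they signal to macrophages through interferon gamma. In the lung, NK cells are known for clearing tumour cells that arrive by the blood.

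Levels are given as CPM, a gene's UMIs scaled to a common total of UMIs for the class, where a UMI counts 1 captured RNA molecule. The kept droplets numbered 3081 in the niche library and 3540 in the distal library, with medians of 11197 and 5794.5 UMIs. Droplets were sorted into classes by marker genes, and none of the 10 genes took part in a rule. A T droplet held at least 3 of 12 T cell genes and fewer than 4 of 14 macrophage genes, and a T+macrophage droplet passed both counts. An NK droplet held at least 2 of 12 NK genes and fewer than 3 T cell genes, with NK+macrophage droplets split off in the same way. The libraries shared 4 barcodes, of which 0 were T, NK or T+macrophage droplets. In the niche library 174 of 210 droplets with T cell genes also held macrophage RNA (82.9%, exact Clopper-Pearson interval 77.1 to 87.7), against 97 of 474 in the distal library (20.5%, 16.9 to 24.4). T+macrophage droplets were deep, with medians of 20763 UMIs in the niche and 10079 UMIs in the distal library, while T droplets had medians of 2576 and 2882 UMIs. T+macrophage droplets carried on average 19.7 UMIs of the T cell genes in the niche and 19.2 UMIs in the distal library, and T droplets carried 20.2 and 33 UMIs. Cd3d, one of the 12 T cell genes of the rule, was found in 86.1% of niche and 81.2% of distal T droplets, and in 0 of 14 niche and 1 of 34 distal NK droplets. Of the 12, Trbc1 and Trbc2 were found most often in NK droplets, in 4 and 2 of 14 niche and 12 and 8 of 34 distal ones. Since the rule used these genes, their shares describe the classes and do not test their names. No doublet caller was run, so whether a T+macrophage droplet held 2 cells or 1 cell with RNA of another was not tested.

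The promoters shown next are those of 3 killing genes and of Klrk1, the member whose pattern differed from the rest, because RUNX factors and the T-box factors T-bet and Eomes are known regulators of cytotoxic genes. RefSeq promoter sequences (GRCm38.p6, 250 bases before the transcription start, read 5′ to 3′ on the gene's own strand) were found for 9 of the 10 genes, and Klrd1 was not matched. Capitals mark the RUNX letters TGTGGTT or the T-box letters GGTGTGA, searched on both strands; the 2 motifs do not overlap each other in these windows.
Gzma promoter, chr13:113100982-113101231, minus strand: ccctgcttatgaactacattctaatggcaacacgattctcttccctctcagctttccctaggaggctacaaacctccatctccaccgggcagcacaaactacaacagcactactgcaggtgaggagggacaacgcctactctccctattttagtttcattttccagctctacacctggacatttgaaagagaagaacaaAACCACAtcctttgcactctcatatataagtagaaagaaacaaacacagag
Gzmb promoter, chr14:56262335-56262584, minus strand: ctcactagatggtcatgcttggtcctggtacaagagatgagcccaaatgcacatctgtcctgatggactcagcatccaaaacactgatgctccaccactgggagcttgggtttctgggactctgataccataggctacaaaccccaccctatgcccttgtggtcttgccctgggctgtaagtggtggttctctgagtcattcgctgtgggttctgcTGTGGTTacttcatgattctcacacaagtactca
Nkg7 promoter, chr7:43436888-43437137, plus strand: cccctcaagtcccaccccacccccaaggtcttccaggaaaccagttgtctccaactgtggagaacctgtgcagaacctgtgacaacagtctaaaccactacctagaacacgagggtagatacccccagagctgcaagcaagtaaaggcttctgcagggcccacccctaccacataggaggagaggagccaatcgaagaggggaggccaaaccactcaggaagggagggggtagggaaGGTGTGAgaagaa
Klrk1 promoter, chr6:129623865-129624114, minus strand: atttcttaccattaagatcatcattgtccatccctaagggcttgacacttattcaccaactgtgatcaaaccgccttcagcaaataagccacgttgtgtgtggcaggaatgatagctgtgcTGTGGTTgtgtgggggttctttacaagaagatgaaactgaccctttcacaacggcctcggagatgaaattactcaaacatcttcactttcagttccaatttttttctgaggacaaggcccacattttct
The RUNX letters occurred in the Gzma, Gzmb and Klrk1 windows and in 1444 of 32851 promoters of the same length. The T-box letters occurred in the Nkg7 and Gzmk windows and in 1095 of the same promoters (3.33%). The Prf1, Ifng, Fasl and Eomes windows held neither run of letters.

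The members differ in role and place. Gzma (ENSMUSG00000023132, chr13:113093825-113100981), Gzmb (ENSMUSG00000015437, chr14:56258838-56262260) and Gzmk (ENSMUSG00000042385, chr13:113171608-113225908) encode granzymes A, B and K, and all 3 lie on the minus strand. Prf1 (ENSMUSG00000037202, chr10:61297833-61304680, plus strand) encodes perforin. Nkg7 (ENSMUSG00000004612, chr7:43437073-43438249, plus strand) encodes a granule membrane protein needed for normal degranulation. Ifng (ENSMUSG00000055170, chr10:118441046-118445892, plus strand) encodes interferon gamma, and Fasl (ENSMUSG00000000817, chr1:161780689-161788495, minus strand) encodes Fas ligand. Klrd1 (ENSMUSG00000030165, chr6:129591782-129598775, plus strand) encodes CD94, the partner of NKG2 receptors that read Qa-1. Klrk1 (ENSMUSG00000030149, chr6:129610323-129623864, minus strand) encodes NKG2D, an activating receptor for stress ligands. Eomes (ENSMUSG00000032446, chr9:118478212-118486132, plus strand) encodes a T-box factor of NK cells and memory T cells. Coordinates are those of the GENCODE annotation of GRCm38, and its gene starts can differ from the RefSeq starts of the promoter windows. The Nkg7 window ended at 43437137, past the GENCODE start at 43437073. Its T-box letters thus lay within the gene as placed here. Ifng overlaps Gm49751 on its own strand, and Eomes overlaps the antisense gene Gm33460, so their counts could be shared with those loci.

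**Figure D1:**
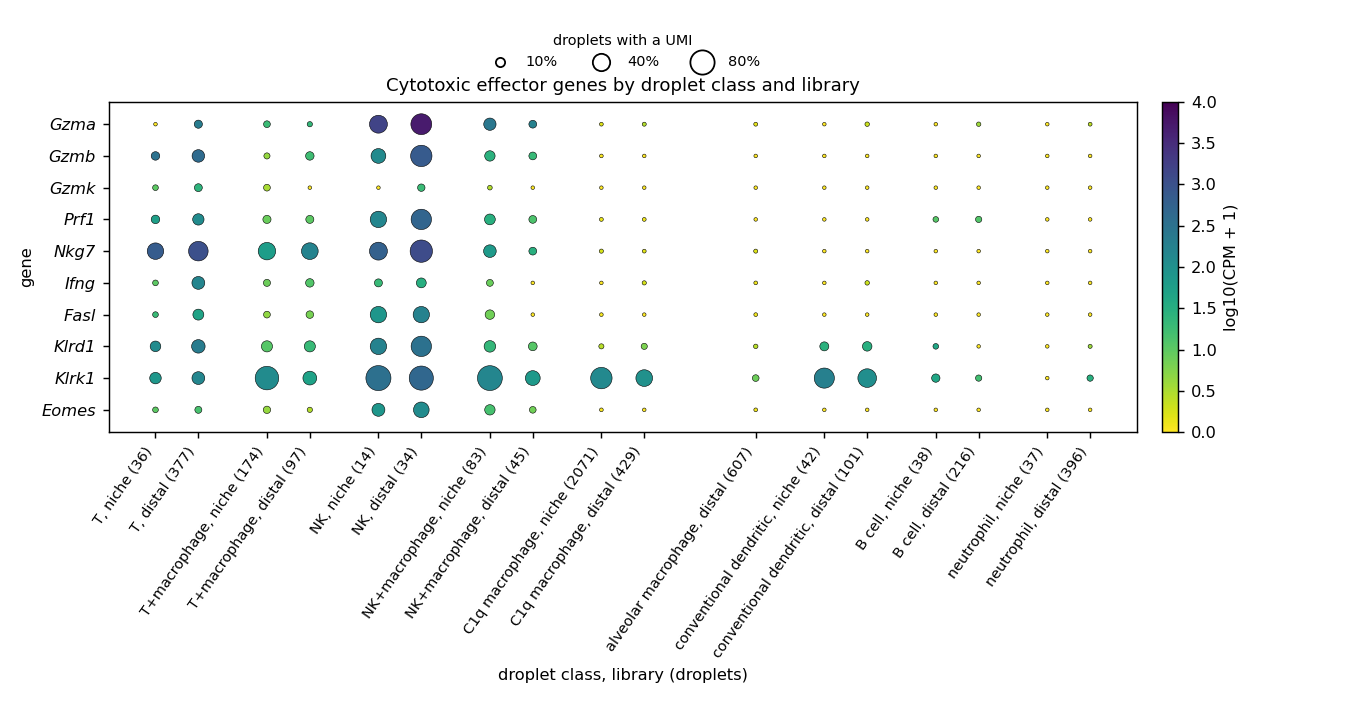
Level and detection of the 10 genes (rows) in each droplet class and library (columns, niche left of distal, number of droplets in brackets; classes with fewer than 10 droplets are left out). Colour gives log10(CPM + 1) over all UMIs of the class and dot area the share of droplets with at least 1 UMI. Klrk1 stood at 127.7 CPM in niche, against 98.2 CPM in distal C1q macrophages, where the other 9 genes were at or under 5.13 CPM in both libraries.

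In T droplets the ratios of most killing genes lay below 1, niche over distal. Over 36 niche and 377 distal T droplets, all 10 genes reached 20 UMIs in the pair of libraries, 0 were at least 2-fold higher in the niche library and 4 were at least 2-fold lower (Gzma, Ifng, Fasl and Prf1), of which Gzma and Ifng had intervals that exclude 0 on the log2 scale. Across all 6928 genes with 20 UMIs in these droplets, 11.1% were at least 2-fold higher and 17.9% at least 2-fold lower. The median log2 ratio of the 10 genes, niche over distal, was -0.87, beside -0.05 for all genes. The niche sums were small, with 107322 UMIs against 1782605 in the distal T droplets, and most single ratios have wide intervals.

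Gzma was at 0 UMIs in niche T droplets, against 384 UMIs or 215 CPM (194 to 238) in distal T droplets. With 3 UMIs as the limit that a count of 0 allows, and UMIs taken as independent, Gzma was at least 7.71-fold lower in the niche library. The 28 distal droplets with Gzma held 13.7 UMIs each on average, so 1 such niche droplet would have passed this limit. Gzma was found in 0 of 36 niche T droplets, which allows a share of up to 8.33%, against 28 of 377 distal ones (7.43%). The share alone thus did not separate the libraries at this depth. The distal level came from few droplets, since 5 droplets held 63.0% of the UMIs and 7 droplets that also held the NK receptor genes Ncr1 or Klre1 held 199 of 384 UMIs. Outside the 22 distal T droplets with Ncr1 or Klre1, Gzma was at 112 CPM, while 1 of 36 niche T droplets held either receptor gene.

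Gzmb was at 307 CPM (212 to 432) in niche and 420 CPM (390 to 451) in distal T droplets, a log2 ratio of -0.43 (-0.998 to 0.05). A single droplet carried 30 of the 33 niche UMIs, and without it the niche level was 29.6 CPM; without the highest distal droplet, which held 211 UMIs, the distal level was 303 CPM. Both levels rest on few droplets: 3 of 36 niche (8.33%) and 76 of 377 distal T droplets (20.2%) held Gzmb. Gzmk, the granzyme of memory-like CD8 T cells, was at 9.32 and 25.2 CPM, with 1 niche and 45 distal UMIs. Prf1 was at 55.9 CPM (20.5 to 122) in niche and 122 CPM (106 to 139) in distal T droplets, a log2 ratio of -1.01 (-2.58 to 0.02).

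Nkg7 had the most UMIs of the 10 genes in T droplets, 77 in the niche and 1902 in the distal library. It was at 717 CPM (566 to 897) in niche and 1067 CPM (1020 to 1116) in distal T droplets, a log2 ratio of -0.56 (-0.92 to -0.24). Nkg7 was found in 36.1% of niche and 51.5% of distal T droplets, and in 22.9% and 37.4% after each droplet was thinned to 1000 UMIs. Ifng was at 9.32 CPM (0.236 to 51.9) in niche and 148 CPM (131 to 167) in distal T droplets, a log2 ratio of -3.41 (-9.30 to -1.50). Its 1 niche UMI lay in 1 of 36 droplets (2.78%), against 80 of 377 distal droplets (21.2%). For Nkg7 and Ifng the counting intervals exclude equal levels. Fasl had 2 UMIs in niche and 84 UMIs in distal T droplets, 18.6 against 47.1 CPM, a log2 ratio of -1.02 (-4.41 to 0.56).

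Klrd1 was at 121 CPM (64.5 to 207) in niche and 217 CPM (195 to 239) in distal T droplets, a log2 ratio of -0.79 (-1.76 to -0.05). Klrk1 was at 74.5 CPM (32.2 to 147) and 144 CPM (127 to 162), a log2 ratio of -0.86 (-2.17 to 0.05). Eomes, with 1 niche and 24 distal UMIs, had a log2 ratio of 0.02 (-5.89 to 2.09) and cannot be placed. CD8 droplets, those with Cd8a or Cd8b1 and no Cd4, made up 33.3% of niche (12 of 36) and 31.6% of distal T droplets (119 of 377).

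Within CD8 T droplets alone, Ifng had 0 niche UMIs against 144 distal UMIs (181 CPM), at least 2.58-fold lower, and Gzma had 0 against 142 UMIs, at least 2.55-fold lower. These bounds take UMIs as independent, while distal CD8 droplets with Ifng held 3.27 and those with Gzma 10.1 UMIs each on average. A single distal CD8 droplet held 68 of those 142 Gzma UMIs, and without it the distal level was 95.2 CPM and the bound fell to 1.36-fold, under the 2-fold limit. Nkg7 was at 1168 CPM in niche, against 1606 CPM in distal CD8 droplets, a log2 ratio of -0.45 (-0.90 to -0.05). Gzmb ran the other way, at 771 and 485 CPM, and without the highest droplet of each library at 81.1 and 426 CPM. Of 9 genes with 20 UMIs, 0 were at least 2-fold higher and 4 at least 2-fold lower, beside 12.5% and 25.6% of all 4541 genes. With genes at 0 set to their bound, 3 were at least 2-fold lower, beside 8.06% of all genes set in the same way. The median log2 ratio was -0.69, or -0.45 with genes at 0 set to their bound.

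**Figure D2:**
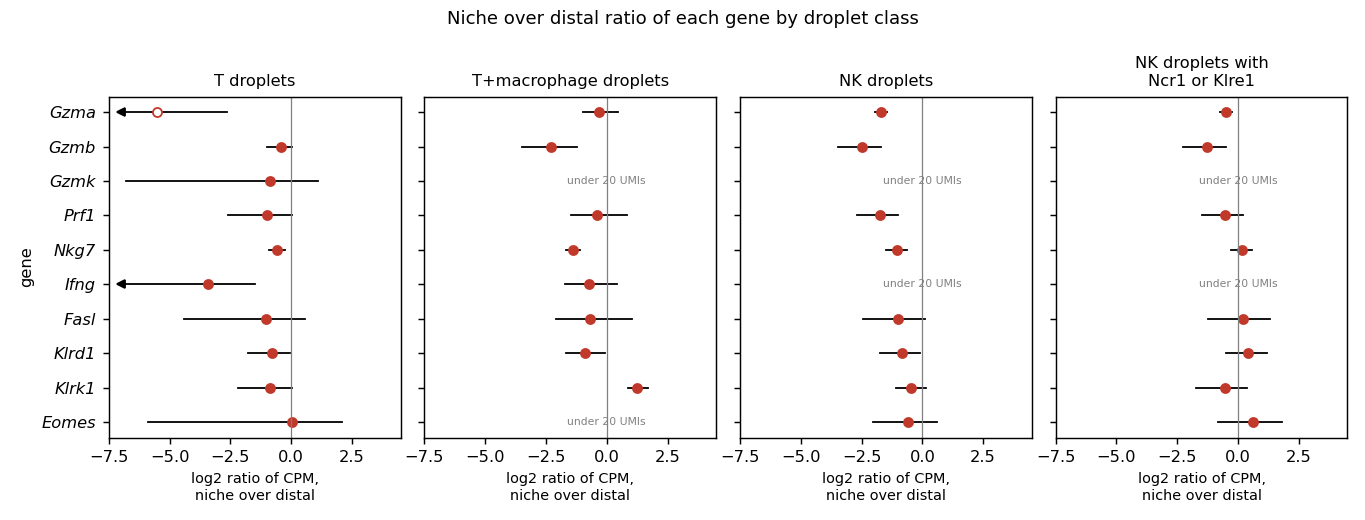
Log2 ratio of CPM, niche over distal, for each gene (rows) in T, T+macrophage and NK droplets and in NK droplets with Ncr1 or Klre1 (panels). Points are ratios with 0.5 UMI added to each sum, lines are 95% counting intervals, arrows run past the axis, and the open point marks Gzma, which had 0 niche UMIs in T droplets. In T droplets 9 of the 10 points lie left of 0, and in T+macrophage droplets Klrk1 lies right of 0 at 1.26.

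Most niche droplets with T cell genes also held macrophage RNA. As shares of all RNA in such droplets, Klrk1 was higher and Gzmb and Nkg7 lower than in the distal library. In T+macrophage droplets, with 174 in the niche and 97 in the distal library, 8 of the 10 genes reached 20 UMIs, 1 was at least 2-fold higher in the niche library (Klrk1) and 2 at least 2-fold lower (Gzmb and Nkg7). Among all 9442 genes, 5.41% were at least 2-fold higher and 9.69% at least 2-fold lower. The median log2 ratio of the members was -0.71, beside -0.09 for all genes. The T cell genes of the rule, summed, were also lower in CPM in the niche droplets, which the median of all genes does not account for. Set against T cell gene UMIs, as given below, the members other than Klrk1 had a summed ratio whose interval includes equal levels. Nkg7 had 61.1 CPM (53.6 to 69.4) in niche and 162 CPM (138 to 187) in distal T+macrophage droplets, a log2 ratio of -1.40 (-1.69 to -1.11). Gzmb was at 3.34 and 16.7 CPM, a log2 ratio of -2.31 (-3.47 to -1.21). Klrk1 went the other way, at 119 CPM (109 to 131) in niche and 49.2 CPM (36.9 to 64.4) in distal T+macrophage droplets, a log2 ratio of 1.26 (0.86 to 1.72).

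CPM in these droplets is a share of a total that includes macrophage RNA, so the genes were also set against the UMIs of the 12 T cell genes in the same droplets. The 14 macrophage genes summed to 11762 CPM in niche and 7672 CPM in distal T+macrophage droplets, and to 335 and 79.7 CPM in T droplets. Per 100 T cell gene UMIs, the 10 genes together had 26.7 UMIs in T+macrophage and 19.6 UMIs in T droplets of the niche library, which is 1.36 times as many (1.14 to 1.64). In the distal library they had 17.1 UMIs in T+macrophage and 34.6 UMIs in T droplets, a ratio of 0.49 (0.44 to 0.55). Without Klrk1, a sum chosen after the values were seen, T+macrophage droplets had 13.1 and T droplets 18.5 UMIs per 100 T cell gene UMIs in the niche library, a ratio of 0.71 (0.59 to 0.87), against 14.3 and 32.6 UMIs and a ratio of 0.44 (0.38 to 0.50) in the distal library.

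Nkg7 was lower in mixed droplets of both libraries, and Gzmb in those of the distal library. Gzmb had 0.379 UMIs per 100 T cell gene UMIs in niche T+macrophage and 4.55 in niche T droplets, and 0.965 against 6.01 in the distal library. The niche T value rests on the 1 droplet with 30 of 33 UMIs: without the highest droplet of each class, Gzmb had 0.206 (7 UMIs) in niche T+macrophage and 0.448 (3 UMIs) in niche T droplets, and 0.768 against 4.34 in the distal library. Nkg7 had 6.94 against 10.6 in the niche library and 9.32 against 15.3 in the distal library, and without the highest droplets 6.20 against 8.23 and 7.46 against 15.1. Ifng had 0.787 in T+macrophage droplets, with 27 UMIs, and 0.138 in T droplets, with 1 UMI, in the niche library, a ratio of 5.71 (0.942 to 234). In the distal library Ifng had 0.643 against 2.12, a ratio of 0.30 (0.15 to 0.54). Interferon gamma RNA of the niche library thus lay mostly in mixed droplets, in 9 of 174, with 13 of the 27 UMIs in 1 droplet. Niche over distal, mixed droplets had a ratio of 1.22 (0.599 to 2.65) per T cell gene UMI for Ifng. Gzma in mixed droplets sat largely with NK RNA: 62 of 68 niche UMIs lay in 3 droplets that also held Ncr1 or Klre1, and 21 of 23 distal UMIs lay in 1 such droplet.

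When T and T+macrophage droplets of a library were pooled, the 9 genes other than Klrk1 had 14.1 UMIs per 100 T cell gene UMIs in the niche and 30.2 in the distal library, a ratio of 0.47 (0.43 to 0.51). Nkg7 had 7.58 and 14.5 UMIs, a ratio of 0.52 (0.46 to 0.59). Ifng had 0.674 and 1.93, a ratio of 0.35 (0.23 to 0.52), and Prf1 had 0.818 and 1.59, a ratio of 0.52 (0.35 to 0.74). Klrk1 had 11.4 and 2.16, a ratio of 5.26 (4.55 to 6.09). Of the 9 genes other than Klrk1, 8 had a ratio under 1, with intervals that include 1 for Gzmk and Fasl, and Eomes had 1.85 (0.894 to 3.68). The classes did not behave alike, however: without Klrk1 the niche over distal ratio was 0.57 (0.47 to 0.67) in T droplets and 0.92 (0.79 to 1.08) in T+macrophage droplets. The pooled niche sum is mostly mixed droplets and the pooled distal sum mostly T droplets. Whether the remaining macrophage RNA, the depth of the droplets or the sort played a part in these ratios was not tested.

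**Figure D3:**
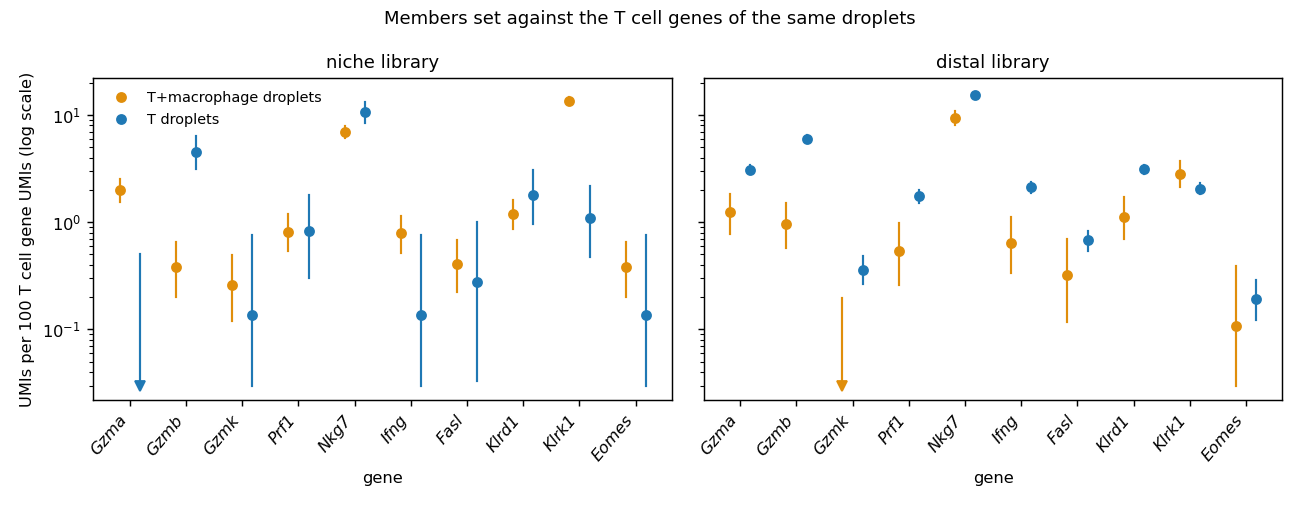
UMIs of each gene per 100 UMIs of the 12 T cell genes (log axis) in T+macrophage and T droplets, for the niche (left) and the distal library (right). Lines are 95% counting intervals, drawn down to 0.03 at the lowest, and triangles mark genes at 0. Klrk1 stands at 13.5 in niche T+macrophage against 1.10 in niche T droplets, while Nkg7 lies lower in T+macrophage than in T droplets of both libraries. The niche T point of Gzmb rests on 1 droplet that held 30 of its 33 UMIs.

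Gzma was higher in NK than in T droplets of both libraries. In the distal library, 34 NK droplets were set against 377 T droplets: 5 of 10 genes were at least 2-fold higher in NK droplets (Gzma, Eomes, Prf1, Fasl and Klrk1) and 1 was at least 2-fold lower (Ifng), beside 12.8% and 13.1% of all 7103 genes, with a median log2 ratio of 1.26 for the members and 0.02 for all genes. Gzma was at 5160 CPM (4818 to 5519) in NK and 215 CPM in T droplets, a log2 ratio of 4.58 (4.41 to 4.76). Prf1 was at 506 CPM in NK and 122 CPM in T droplets, a log2 ratio of 2.06 (1.67 to 2.43), and Eomes at 122 and 13.5 CPM, a log2 ratio of 3.19. Ifng was at 30.5 CPM in NK and 148 CPM in T droplets, a log2 ratio of -2.15 (-3.91 to -1.04). Nkg7, at 1208 and 1067 CPM, differed by a log2 ratio of 0.18 (-0.04 to 0.39).

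Most RNA of the NK class came from droplets in which neither of 2 defining receptor genes was found. Of 14 niche and 34 distal NK droplets, 6 and 23 held Ncr1, which encodes NKp46, or Klre1, and these are called receptor-positive. They contributed 15986 UMIs to a class total of 102532 in the niche library, and 58753 to a total of 163967 in the distal library. NK levels, ratios and gene counts under the rule as set thus rest on totals that are mostly RNA of the remaining droplets. Klra3, an inhibitory Ly49 receptor gene in the rule, was found in 78.6% of niche and 52.9% of distal NK droplets and also in 8.62% of niche and 12.3% of distal macrophage droplets. The 7 dendritic cell genes summed to 3735 CPM in niche and 1238 CPM in distal NK droplets, and to 0 UMIs in the receptor-positive droplets of both libraries. Among them Fscn1 was found in 6 of 14 niche (42.9%) and 2 of 34 distal NK droplets (5.88%), and Zbtb46 in 4 of 14 (28.6%) and 2 of 34. All 162 niche and all 846 distal Gzma UMIs of the NK class lay in the receptor-positive droplets, as did all its Gzmb, Prf1 and Nkg7 UMIs. There Gzma was at 10134 CPM (8633 to 11820) in the niche and 14399 CPM (13445 to 15403) in the distal library, found in 6 of 6 and 20 of 23 droplets. This split was chosen after the values were seen.

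Receptor-positive NK droplets of the distal library had 9 of 10 genes at least 2-fold higher than T droplets and 0 at least 2-fold lower, beside 19.2% and 15.5% of all 6868 genes, with a median log2 ratio of 2.51. Gzma stood at a log2 ratio of 6.06 (5.89 to 6.24), Eomes at 4.67 (3.73 to 5.58), Prf1 at 3.54 (3.15 to 3.91), Fasl at 3.30 (2.60 to 3.93), Klrk1 at 2.74 (2.29 to 3.15), Gzmb at 2.28 (1.98 to 2.55) and Nkg7 at 1.66 (1.44 to 1.87). Ifng, at 85.1 CPM in receptor-positive NK and 148 CPM in T droplets, had a log2 ratio of -0.66 (-2.43 to 0.44) from 5 NK UMIs. Gzmk, with 3 NK UMIs, had an interval that spans 0 (-1.31 to 2.66), and without its highest droplets its log2 ratio was 0.17, under 2-fold. All 20 distal NK droplets with Gzma also held Gzmb and Nkg7, and 18 held Prf1.

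Between libraries, the NK ratios lay below 1 under the rule as set and nearer to 1 in receptor-positive droplets. Of 8 genes with 20 UMIs, 0 were at least 2-fold higher in the niche library and 5 at least 2-fold lower, beside 8.80% and 10.6% of all 1967 genes, with a median log2 ratio of -1.03. The part of the dendritic cell RNA in these ratios was not tested. In receptor-positive droplets, 6 niche against 23 distal, 0 were at least 2-fold higher and 1 (Gzmb) at least 2-fold lower, beside 4.78% and 7.46% of all 523 genes, and the median log2 ratio was -0.17. Gzmb was at 813 CPM (433 to 1391) in niche and 2025 CPM (1678 to 2424) in distal receptor-positive droplets, a log2 ratio of -1.27 (-2.27 to -0.49). Gzma had a log2 ratio of -0.50 (-0.76 to -0.26), Prf1 of -0.55 (-1.49 to 0.21), Nkg7 of 0.16 (-0.29 to 0.58) and Klrd1 of 0.40 (-0.49 to 1.18). Thus Nkg7, lower in niche T droplets, was at 3753 CPM in niche, against 3370 CPM in distal receptor-positive NK droplets.

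In the niche library itself, NK over T droplets gave 3 of 6 measured genes at least 2-fold higher (Gzma, Klrk1 and Prf1) and 1 at least 2-fold lower (Gzmb), beside 23% and 15.9% of all 1451 genes, with a median log2 ratio of 0.92. Prf1 had 15 and 6 UMIs, a log2 ratio of 1.32 with an interval that includes 0 (-0.06 to 3.04). Of the 35 Klrk1 UMIs of niche NK droplets, 10 lay in receptor-positive droplets. Gzma, with 162 UMIs in NK and 0 in T droplets, was at least 56.5-fold higher in NK droplets if UMIs are taken as independent. By detection, Gzma was found in 6 of 14 NK and 0 of 36 T droplets. Gzmb, at 127 CPM in NK and 307 CPM in T droplets, turned to a log2 ratio of 1.44 (0.35 to 2.37) when only receptor-positive NK droplets were used. It also turned without the highest droplet of each class, at 69.7 CPM in NK and 29.6 CPM in T droplets, a log2 ratio of 1.11 (-0.89 to 3.82), so its direction rests on 1 T droplet.

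As with T cells, most receptor-positive niche droplets also held macrophage RNA. Of receptor-positive droplets, 18 of 24 in the niche library also passed the macrophage rule (75.0%, 53.3 to 90.2), against 5 of 28 in the distal library (17.9%, 6.06 to 36.9). In these 18 niche droplets Gzma had 367 UMIs, in 14 droplets, at 1133 CPM, and in the 5 distal ones 87 UMIs, in 3 droplets, at 1325 CPM. Prf1 was found in 10 of 18 and 3 of 5, and Eomes in 10 of 18 and 2 of 5. NK+macrophage droplets without either receptor gene, 65 in the niche and 40 in the distal library, had 0 Gzmb UMIs in both, and Gzma in 2 of 65 and 0 of 40. NK+macrophage droplets held 58.5% of all niche Gzma UMIs, and NK droplets held 62.3% of all distal ones.

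**Figure D4:**
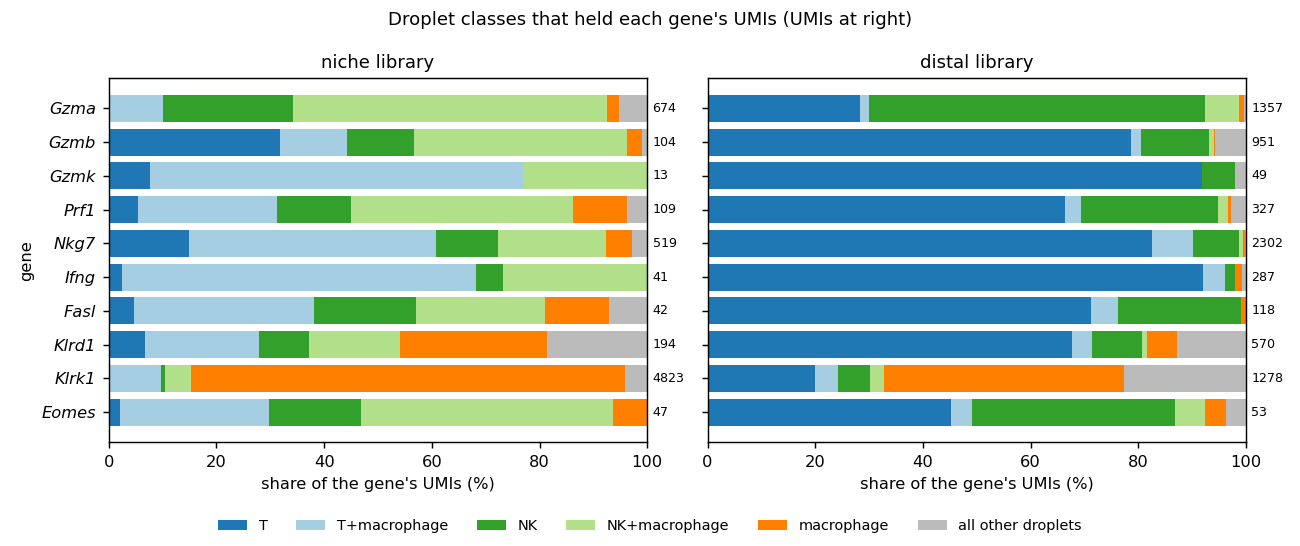
Share of each gene's UMIs (horizontal axis, percent) by droplet class in the niche (left) and the distal library (right), with the gene's UMI total at the right end of each bar. In the distal library T and NK droplets hold most UMIs of the 9 genes other than Klrk1. In the niche library T+macrophage and NK+macrophage droplets hold 65.9% and 26.8% of Ifng UMIs. Macrophage droplets hold 80.7% of niche and 44.6% of distal Klrk1 UMIs, beside 81.2% of niche and 66.3% of distal UMIs of all genes.

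Klrk1 was the member with the largest share of its UMIs in macrophages, and that share did not exceed the macrophages' share of all RNA. In the niche library 3890 of its 4823 UMIs lay in macrophage droplets (80.7%), beside 81.2% of the UMIs of all genes, and in the distal library 570 of 1278 (44.6%), beside 66.3%. The other 9 genes had from 0 to 27.3% of their niche UMIs and from 0 to 5.61% of their distal UMIs there, the highest for Klrd1 in both. It was found in 1446 of 2354 niche macrophage droplets (61.4%, 59.4 to 63.4) at 128 CPM, and in 294 of 1858 distal ones (15.8%, 14.2 to 17.6) at 39.6 CPM, a log2 ratio of 1.69 (1.56 to 1.82), with 1 of 4 measured members at least 2-fold higher and 0 lower beside 7.00% and 16.0% of all 12051 genes. Those 2 sums mix different macrophages. C1q macrophages, droplets with at least 2 of the complement genes C1qa, C1qb and C1qc, numbered 2071 in the niche and 429 in the distal library, whereas alveolar macrophages numbered 1 and 607.

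Among C1q macrophages the libraries differed less: Klrk1 was at 127.7 CPM (124 to 132) in niche and 98.2 CPM (88.4 to 109) in distal droplets, a log2 ratio of 0.38 (0.22 to 0.54). Of 4 measured members 0 were at least 2-fold higher and 2 at least 2-fold lower (Gzma and Klrd1), beside 3.30% and 6.83% of all 11511 genes. The Gzma value rests on 1 droplet of each library, which held 12 of 15 niche and 6 of 7 distal UMIs. Without these droplets Gzma had 3 and 1 UMIs, a log2 ratio of -1.68 (-4.96 to 4.40). Klrk1 was found in 62.1% of niche and 37.1% of distal C1q droplets, and in 11.1% and 6.78% once each droplet was thinned to 1000 UMIs. Within the distal library, C1q macrophages were at 98.2 CPM and alveolar macrophages at 6.79 CPM (4.68 to 9.54), a log2 ratio of 3.83 (3.34 to 4.41), with 2 of 2 measured members at least 2-fold higher (Klrk1 and Klrd1) and 0 lower, beside 10.2% and 19.7% of all 10210 genes. The remaining macrophages, with neither set of markers, had 129 CPM in the niche and 29.6 CPM in the distal library.

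Klrk1 stood far above the other members in C1q macrophages. Klrd1 came next there, with 46 niche UMIs (1.66 CPM) and 19 distal UMIs (5.13 CPM). In niche C1q macrophages there were 3534 Klrk1 UMIs and 22 Nkg7 UMIs, 161 Klrk1 UMIs per Nkg7 UMI, and in distal ones 364 and 2, or 182. In niche T droplets the ratio was 0.104, and in distal T droplets 0.135. Gzmb had 2 UMIs over 2071 niche and 0 over 429 distal C1q macrophages, and Ifng had 0 and 3. Neutrophils, a class taken to lack the gene, held Klrk1 in 0 of 37 niche droplets, which allows a share of up to 8.11%, and in 15 of 396 distal ones (3.79%), at medians of 1059 and 1140.5 UMIs. B cell droplets held it in 3 of 38 niche (7.89%) and 8 of 216 distal (3.70%), at medians of 1736.5 and 2510 UMIs, and after thinning in 2.78% and 0.478%. After the same thinning distal neutrophils were at 0.787%, with 2 of the 254 droplets deep enough, alveolar macrophages at 0.824% and C1q macrophages at 6.78%. In CPM distal neutrophils stood at 28.6 (17.2 to 44.7), above alveolar macrophages at 6.79 (4.68 to 9.54). Their interval overlaps that of all distal macrophages, at 39.6 CPM (36.4 to 43.0), so by CPM they set no floor for Klrk1 in the distal library.

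T+macrophage droplets of the niche library, at 119 CPM of Klrk1, lay near niche macrophages at 128 CPM, and distal ones, at 49.2 CPM, near distal macrophages at 39.6 CPM. The Klrk1 difference between mixed droplets of the libraries ran beside that between their macrophages, and the part of macrophage RNA in it was not tested. Dendritic cells carried Klrk1 too. Conventional dendritic droplets held it in 23 of 42 niche and 47 of 101 distal droplets, at 185 CPM (142 to 237) and 110 CPM (89.4 to 134), and Klrd1 in 4 of 42 and 11 of 101. Plasmacytoid dendritic droplets held Klrd1 in 2 of 7 niche and 12 of 22 distal droplets, at 47.8 CPM (5.79 to 173) and 184 CPM (112 to 283), and neither dendritic class held a Gzmb, Prf1 or Nkg7 UMI.

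**Figure D5:**
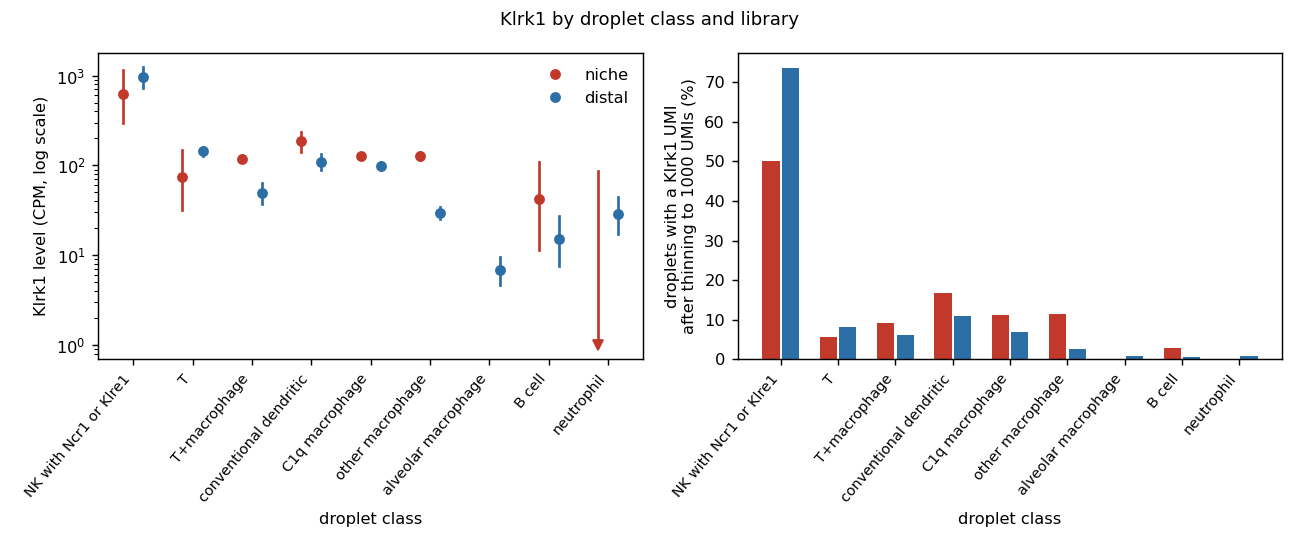
Klrk1 by droplet class and library. The left panel gives CPM on a log axis with 95% counting intervals (the triangle marks 0 UMIs), and the right panel the share of droplets with a Klrk1 UMI after thinning each droplet to 1000 UMIs (classes with fewer than 5 droplets are left out). C1q macrophages stand at 11.1% in the niche and 6.78% in the distal library, above distal alveolar macrophages at 0.824%.

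The order of classes by level differed between the genes. For Klrk1 in the distal library, NK droplets came first at 470 CPM (371 to 587), and plasmacytoid dendritic droplets followed at 229 CPM (148 to 339). T droplets stood at 144 CPM (127 to 162), conventional dendritic at 110 CPM (89.4 to 134), classical monocyte at 109 CPM (67.5 to 167) and C1q macrophage droplets at 98.2 CPM (88.4 to 109). Each of these 4 overlaps its neighbour in the order, and the plasmacytoid interval overlaps that of T droplets. NK+macrophage (69.1 CPM), T+macrophage (49.2 CPM), neutrophil (28.6 CPM), B cell (15.4 CPM) and alveolar macrophage droplets (6.79 CPM) followed. The NK+macrophage value is mostly that of droplets not receptor-positive, since 40 of 45 held neither Ncr1 nor Klre1, with 28 of the 33 Klrk1 UMIs. Klra3, a gene of the NK rule, was found in 95.6% of this class and in 12.3% of distal macrophage droplets. For Gzma the distal order was NK (5160 CPM), T (215 CPM, 194 to 238), NK+macrophage (182 CPM, 146 to 225) and T+macrophage droplets (21.4 CPM), where T and NK+macrophage overlap. For Ifng T droplets came first at 148 CPM (131 to 167), then NK at 30.5 CPM (9.90 to 71.2) and T+macrophage at 11.1 CPM (5.76 to 19.5), and the last pair overlaps.

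Among distal T droplets, most members were higher in CD8 than in CD4 droplets. In 119 CD8 against 89 CD4 droplets, 6 of 9 measured genes were at least 2-fold higher (Gzmk, Prf1, Klrd1, Klrk1, Fasl and Nkg7) and 0 at least 2-fold lower, beside 3.14% and 4.96% of all 5727 genes, with a median log2 ratio of 1.46 for the members and -0.07 for all genes. Prf1 was at 206 CPM in CD8 and 6.46 CPM in CD4 droplets, a log2 ratio of 4.78 (3.42 to 7.29). Gzmk had 37 UMIs in CD8 and 0 in CD4 droplets, at least 7.20-fold higher. Klrd1 had a log2 ratio of 2.94 (2.35 to 3.65) and Klrk1 of 2.69 (1.99 to 3.57). Nkg7 was at 1606 and 661 CPM, in 107 of 119 CD8 and 32 of 89 CD4 droplets.

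Gzmb ran the other way as a sum, at 485 CPM in CD8 and 635 CPM in CD4 droplets, a log2 ratio of -0.39 (-0.61 to -0.16). A single CD4 droplet held 211 of the 295 CD4 UMIs, and without the highest droplet of each subset the levels were 426 and 184 CPM. By detection, 42.9% of CD8 and 14.6% of CD4 droplets held Gzmb. Ifng was found in 37.0% of CD8 and 20.2% of CD4 droplets, at 181 and 101 CPM, a log2 ratio of 0.83 (0.35 to 1.35).

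Detection overlapped within droplets. In the niche library 18 of 36 T droplets held at least 1 of the 10 genes, 4 at least 3 and 1 at least 5, against 228, 105 and 60 of 377 T droplets in the distal library. Of 76 distal T droplets with Gzmb, 69 held Nkg7, 39 Ifng and 30 Prf1. Of 89 with Klrd1, 85 held Nkg7 and 61 Klrk1. Of 28 with Gzma, 16 held Gzmb and 24 Nkg7, and of 20 distal NK droplets with Gzma all held both. These counts depend on the depth of the droplets, and that dependence was not tested.

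The genes most like the members were found by Pearson correlation of log2(CPM + 10) over 19 class and library points with at least 20 droplets, among 10831 genes with at least 100 UMIs; points of 1 library share its depth and gene table. For the 10 genes summed, the leading genes were Dcaf15, Asb6, Stk39, Rbbp4 and Smap1 (r from 0.82 to 0.85), which are not on the pathway lists. For the sum without Klrk1, chosen after the values were seen, they were Ctsw, Klrc2, Sh2d1a, Xcl1 and Klrc1 (r from 0.81 to 0.87), of which Xcl1 is part of the NK rule. For Klrk1 alone they were Dhrs4, Plaat3, Rab10, Ufc1 and Commd6 (r from 0.85 to 0.88). Within the list, Prf1 and Fasl were most alike (r = 0.96), and Klrk1 had r from 0.35 to 0.68 with the other 9.

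Other genes of the killing pathway were counted from 10 lists holding 71 genes. In T droplets, niche over distal, 52 had 20 UMIs, 6 (11.5%) were at least 2-fold higher and 12 (23.1%) at least 2-fold lower, beside the background of 11.1% and 17.9%, with a median log2 ratio of -0.32. Of the 12, 6 had 0 niche UMIs, and with genes at 0 set to their bound 6 were at least 2-fold lower, beside 8.57% of all genes set in the same way. The lower ones included Ccl5, a chemokine of effector T cells, at 391 CPM in niche, against 1857 CPM in distal T droplets, a log2 ratio of -2.23 (-2.72 to -1.81). Serpinb6b, a serpin, was at 9.32 and 87.5 CPM, a log2 ratio of -2.65 (-8.54 to -0.73). Klrg1, a receptor of effector cells, Cd160, Jak2, Il12rb1, Cd244a and Lta had 0 UMIs in niche T droplets and 67, 63, 38, 32, 30 and 24 UMIs in distal ones, too few to place them 2-fold lower at this depth. Fcgr3, an Fc receptor of NK cells and macrophages, had 3 and 17 UMIs, a log2 ratio of 1.73 (-0.86 to 3.34). Of the 7 further granzymes, 0 had 20 UMIs in any comparison.

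In T+macrophage droplets 50 pathway genes had 20 UMIs, 2 were at least 2-fold higher and 6 (12.0%) at least 2-fold lower, beside the background of 5.41% and 9.69%. Ctsc, the protease that activates granzymes and a gene of macrophages as well, was at 3440 CPM in niche, against 1293 CPM in distal droplets, a log2 ratio of 1.41 (1.33 to 1.49). Xcl1 had 60 and 2 UMIs, a log2 ratio of 2.74 (1.14 to 6.13), but was found in only 8 of 174 niche and 2 of 97 distal droplets. In T droplets Xcl1 ran the other way, with 12 niche and 625 distal UMIs, a log2 ratio of -1.59 (-2.61 to -0.83). Hcst, the adaptor DAP10 that carries the NKG2D signal, was at 90.9 CPM in niche, against 196 CPM in distal T+macrophage droplets, a log2 ratio of -1.11 (-1.36 to -0.85), opposite to Klrk1 in the same droplets. Lta, Rab27a, Il2ra, Bhlhe40 and Tox were the other lower genes, with log2 ratios from -3.35 to -1.32. All these levels of T+macrophage droplets are shares of a total that includes macrophage RNA, and they were not set against T cell gene UMIs. Niche mixed droplets were deeper at near-equal T cell gene UMIs, so the T cell genes of the rule, summed, were also lower in CPM there. The part of this in the lower ratios, that of Hcst included, was not tested.

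In NK droplets, niche over distal, 29 pathway genes had 20 UMIs, 5 (17.2%) were at least 2-fold higher and 5 (17.2%) at least 2-fold lower, beside the background of 8.80% and 10.6%. The chemokine genes Xcl1, Ccl3 and Ccl4 were among the lower ones, at log2 ratios of -2.86 (-5.40 to -1.41), -2.46 (-4.27 to -1.26) and -1.14 (-1.71 to -0.63), and Xcl1 is part of the NK rule. Most RNA of both NK sums came from droplets that were not receptor-positive. In receptor-positive droplets 19 pathway genes had 20 UMIs, 1 (5.26%) was at least 2-fold higher and 4 (21.1%) at least 2-fold lower. The background there was 4.78% and 7.46%. In these droplets Xcl1 was at -1.65 (-4.20 to -0.21) and Ccl3 at -1.26 (-3.07 to -0.06), and Ccl4 was not 2-fold lower. In NK over T droplets of the distal library 53 had 20 UMIs, 20 (37.7%) were at least 2-fold higher and 10 (18.9%) at least 2-fold lower, beside 12.8% and 13.1%, with 8 lower when genes at 0 are set to their bound. Tyrobp, the adaptor DAP12, was at 1622 CPM in NK and 116 CPM in T droplets, a log2 ratio of 3.80 (3.54 to 4.07). Serpinb9, an inhibitor of granzyme B, was at 342 and 56.7 CPM, a log2 ratio of 2.60 (2.09 to 3.08). Tox, a factor of T cells under lasting antigen, was at 6.10 and 83.6 CPM, a log2 ratio of -3.20 (-9.09 to -1.28). In receptor-positive NK over T droplets of the distal library, 27 of 53 pathway genes (50.9%) were at least 2-fold higher, beside 19.2%. There 7 (13.2%) were at least 2-fold lower, beside 15.5%, and 2 with genes at 0 set to their bound, beside 3.89%.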

How the data were processed

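Each deposited matrix is a table of UMI counts by gene and barcode that the authors did not normalize. Per the file headers, Cell Ranger 6.0.0 wrote the niche matrix and version 3.0.2 the distal one. Tools named in the submitters' processing notes, without roles, are Bowtie2, RSEM, Seurat 4.1.1 and Cell Ranger 3.02, and the builds named are GRCm38 and mm10. Counting version, gene annotation and group cannot be told apart. Genes were joined by 29413 shared Ensembl identifiers, and coordinates come from GENCODE on GRCm38.

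A barcode was kept if it had 200 genes or more and a mitochondrial share of 10% or less (3081 of 3242 niche, 3540 of 3945 distal). Droplet classes needed this many marker genes: T 3, NK 2, macrophage 4, B cell 3, neutrophil 3, plasmacytoid dendritic 3, conventional dendritic 2, basophil and mast 2, monocyte 3. No doublet caller was run. UMIs were summed per class and given as CPM with exact Poisson intervals, shares with Clopper-Pearson intervals, and log2 ratios (0.5 UMI added to each sum) with exact conditional binomial intervals, all at 95% and all for counting error only. A gene was measured with 20 UMIs or more in the pair of sums and called at a fold of 2. Cells are not replicates, so no p-value is given. On data simulated from the T droplets, niche over distal, 97.6% of the intervals of 6713 genes held the true value. The simulated counts were Poisson draws of each class sum, the kind of error the intervals assume. Clustering of UMIs in single droplets was left out of the simulation, so how the intervals cover it was not tested. Members and lists were chosen with earlier results of these data known. Pathway genes were eligible to be named where they were among the 8 furthest past 2-fold in a comparison, and some of those are named. Alternatives changed the marker counts, droplet filters, scaling, depth, the UMI minimum and the NK rule. Leaving out the droplet with most UMIs of a gene from each sum, and setting genes at 0 to a floor of 3 UMIs in the pathway counts, were chosen after seeing the data. The software was matplotlib 3.10.9, pandas 2.3.3, scipy 1.17.1, numpy 2.4.6 and Python 3.11.15.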

Additional observations from a re-analysis of the deposited data

Results flagged for a closer look

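The Klrk1 ratio differed between droplet classes under the same contrast, with point values of opposite sign. Its log2 ratio, niche over distal, was 1.26 (0.86 to 1.72) in T+macrophage droplets and -0.86 (-2.17 to 0.05) in T droplets, which differ by 2.13, and -0.45 (-1.08 to 0.13) in NK droplets, which differs from T+macrophage droplets by 1.71. The T and NK intervals include 0. With 1 library a group these differences were not tested.

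Klrk1 was also found in barcodes that the filters removed. It was at 166 CPM (126 to 216) over 161 removed niche barcodes and 52.0 CPM (34.8 to 74.7) over 405 removed distal ones, the same direction as in kept macrophages.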

How the results depend on the processing

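No paired analysis was possible because each group is 1 library. No library was left out, for the same reason. Of 606 ratios of single members under the alternatives, 513 stayed within the main counting interval, 87 moved out of it, and 6 that were past 2-fold turned sign. The median for T droplets, niche over distal, stayed within its wide interval (-3.50 to 0.04) under the alternatives run.

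Results for NK droplets depend on which droplets count as NK. With at least 3 NK genes the medians were -0.20 for niche over distal, 2.06 for NK over T in the distal and 2.57 in the niche library. Without Klra3 and Klra9 they were -0.16, 2.49 and 3.20, and with Ncr1 or Klre1 required -0.17, 2.51 and 3.20, both chosen after seeing the data. Under these 3 rules in turn the Nkg7 log2 ratio, niche over distal in NK droplets, turned to 0.031, 0.21 and 0.16, and the Gzmb log2 ratio, NK over T in the niche library, to 0.65, 1.44 and 1.44.

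The distal ratio of member UMIs per T cell gene UMI, T+macrophage over T, was 0.607 with a macrophage rule of 2 genes and 0.407 with 6 genes. After thinning to 1000 UMIs the T+macrophage median, niche over distal, was 0.67 and rested on 1 gene, Klrk1. The medians for NK over T were then 2.40 in the distal and 5.14 in the niche library, and the ratios per T cell gene UMI 1.83 in the niche and 0.612 in the distal library. The cause was not tested. The 36 niche T droplets limit every niche T value.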

Other observations

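Nearly all Gzmb UMIs of the basophil and mast class lay in 1 droplet. The niche library had 2 basophil and mast droplets, with 0 Gzmb UMIs. Over 10 such droplets in the distal library Gzmb had 55 UMIs, of which 1 droplet held 53, and Gzma had 0 UMIs. The class also held 2 Nkg7 UMIs and 1 Prf1 UMI, and whether lymphocyte RNA was part of it was not tested.

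Prf1 UMIs were seen as single molecules in B cell droplets, in 1 of 38 niche and 8 of 216 distal droplets, with no Gzmb or Nkg7 UMI in that class in either library.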
